A study of Drosophila melanogaster with 62 samples.

Results

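Oxidative phosphorylation (OXPHOS) genes of the nuclear genome were followed through the oocyte-to-embryo transition in single *Drosophila melanogaster* oocytes and embryos. They were taken as every gene of the count table whose FlyBase symbol starts with ND- (complex I), Sdh and a capital letter (complex II), UQCR- (complex III), COX and a digit (complex IV) or ATPsyn (complex V, the ATP synthase), which gave 87 of 17510 genes. The study asked how loss of the RNA-binding protein BRAT from the mother changes gene expression before and during zygotic genome activation. It sequenced 62 libraries of polyadenylated RNA, each from a single late-stage oocyte or a single embryo, in 16 groups.

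*brat*-mutant samples came from mothers with the genotype brat Df/fs1, that is a deficiency uncovering *brat* over the *fs1* allele. *brat* het samples came from mothers with either lesion over the CyO balancer (brat Df/cyo or brat fs1/cyo), and which of these a given library had is not stated. *HisRFP* controls came from mothers of the genotype w;His2AVRFP(III), and per the study's methods the *brat* flies carried the same histone fluorescent transgene. The genotype is therefore that of the mother. *brat*-mutant and *HisRFP* groups covered late-stage oocytes, nuclear cycles (NC) 10, 12 and 13, and an early and a later point of NC14, whereas *brat* hets covered oocytes, NC10, NC12 and later NC14. Each group had 4 libraries, with the letters A to D, and the NC13 groups had 3 (A, C and D). Embryos were staged by the density of their nuclei and oocytes by their shape after dissection from the ovary. No label says that the libraries of a group came from separate mothers, so p-values measure the spread between these samples.

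Complexes I to IV form the electron transport chain of the inner mitochondrial membrane. Complex I takes electrons from NADH and complex II, which is also the succinate dehydrogenase of the TCA cycle, takes them from succinate. Complex III passes them to cytochrome c and complex IV to oxygen. The ATP synthase uses the resulting proton gradient. In flies, mitochondria are loaded into the oocyte by the mother and the early embryo depends on maternal mRNA for its nuclear-encoded mitochondrial proteins until its own genome is transcribed. A few subunits are encoded by the mitochondrial genome. Its 13 protein-coding genes are in the count table, and each had 0 reads in every library, so only the nuclear subunits are described. Several nuclear subunits have a second gene, named with a trailing L (for like), and many such copies are known in flies for expression in the male germ line.

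Of the 87 genes, 63 carried a symbol without a trailing L and 24 were L-named copies. Of the former, 60 had reads in all 62 libraries, with 4217 to 918066 reads in total, and 3 did not reach 50 reads over all libraries. Those were *ND-B8*, with 13 reads, and *ND-MNLL* and *UQCR-14*, with 0, whose exons lie 100% within exons of another annotated gene, where a count that is not assigned uniquely is dropped. Of the 24 copies, 9 reached 50 reads, with at most 1099 in total. CPM values (counts per 1000000 counted reads, with TMM scaling factors over all 62 libraries) are therefore given for 69 genes. Counting was not strand-specific, so reads of overlapping genes cannot be separated. Among the 60 genes, the share of exon bases that overlap another gene was largest for *UQCR-6.4* (40.46%, with *POSH*), *ATPsyndelta* (35.58%, with *CG2962*), *ND-MWFE* (34.95%, with *Nrk* and *TppII*) and *ND-B22* (26.06%, with *CG31855*), and values for these 4 are uncertain to that extent.

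Levels of different genes were compared per kilobase of exon, as the mean over all libraries. On this scale *ATPsynC*, which encodes the proton-carrying ring of the ATP synthase, was highest at 580.1 CPM per kb, followed in complex V by *ATPsynbeta*, the catalytic subunit, at 315 CPM per kb. In complex IV, *COX7B* and *COX5A* were at 249.8 and 198 CPM per kb. In complex I, *ND-MLRQ* and *ND-42* led with 214 and 118 CPM per kb. In complex III, *UQCR-C1* and *UQCR-Q* had 127 and 85.5 CPM per kb, and in complex II *SdhB*, the iron-sulfur subunit, and *SdhA*, the flavoprotein, had 120.2 and 56.2 CPM per kb. The order changed with the stage. In *brat*-mutant embryos at later NC14 *ATPsynC* was at 248 CPM per kb, below *ND-MLRQ* (349.7), *ATPsynCF6* (342) and *COX7B* (339), and *SdhA* was below *SdhD*, a membrane anchor of complex II, in every group from NC12 on. The L-named copies lay far below, at most 0.922 CPM per kb for *SdhBL*.

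Between 4000899 and 41029921 reads per library were counted on genes, and the NC13 and early NC14 libraries (15882592 to 41029921) were deeper than most others, so steps into NC13 and out of early NC14 cannot be told apart from depth. Eggshell genes made by follicle cells (12 of 14 with reads enough to be measured) summed to 55.0 to 266 CPM in *brat*-mutant oocytes and to 17598 to 60194 CPM in *brat* het oocytes, and in *HisRFP* oocytes to 2.87, 14312, 6200 and 31006 CPM in A to D. Zygotic marker genes (9 of 10 measured) summed to 60.4 to 248 CPM in oocytes and to 8264 to 17363 CPM at later NC14, where *brat*-mutant embryos had 8264 to 10859, *brat* hets 8896 to 14356 and *HisRFP* embryos 12522 to 17363 CPM. At NC13 *brat*-mutant A (4406) and *HisRFP* C (4741) stood above the 4 other libraries (1503 to 1883). The mRNA of *brat* itself was lower in every *brat*-mutant than in every *HisRFP* library in oocytes (492 to 549 against 572 to 966 CPM) and at NC10 (418 to 642 against 727 to 969 CPM). From NC12 on it was higher in every *brat*-mutant library, with 592 to 722 against 473 to 589.7 CPM at NC12 and 952 to 1022 against 94.2 to 108 CPM at early NC14. The 2 genotypes thus did not overlap in *brat* mRNA at any stage, in opposite directions before and from NC12. No pair of libraries had identical counts.

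The 87 genes together took at most 1.15% of the counted reads of a library. In *HisRFP* their share was 0.972% ± 0.133 (SD, n = 4) of counted reads in oocytes, 0.797% ± 0.105 (SD, n = 4) at NC10 and 0.693% ± 0.0356 (SD, n = 4) at NC12. It then stood at 0.631% ± 0.00419 (SD, n = 3) at NC13, 0.614% ± 0.0695 (SD, n = 4) at early NC14 and 0.670% ± 0.0501 (SD, n = 4) at later NC14. Thus the share in every *HisRFP* embryo from NC12 on lay below that in every *HisRFP* oocyte. *brat*-mutant means were below those of *HisRFP* at each stage, with overlapping libraries in oocytes and at NC10, NC12 and early NC14, and went from 0.932% ± 0.0731 (SD, n = 4) in oocytes through 0.635% ± 0.0489 (SD, n = 4) at NC12 to 0.609% ± 0.0155 (SD, n = 4) at later NC14. In *brat* hets the share was 0.829% ± 0.0302 (SD, n = 4), 0.823% ± 0.0926 (SD, n = 4), 0.780% ± 0.0687 (SD, n = 4) and 0.746% ± 0.0712 (SD, n = 4) in oocytes and at NC10, NC12 and later NC14, so that every *brat* het embryo of NC12 or later NC14 lay above every *brat*-mutant embryo of the same stage. These are shares of the RNA sequenced, and less mRNA of a gene per embryo cannot be told apart from more of all other mRNA.

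**Figure D1:**
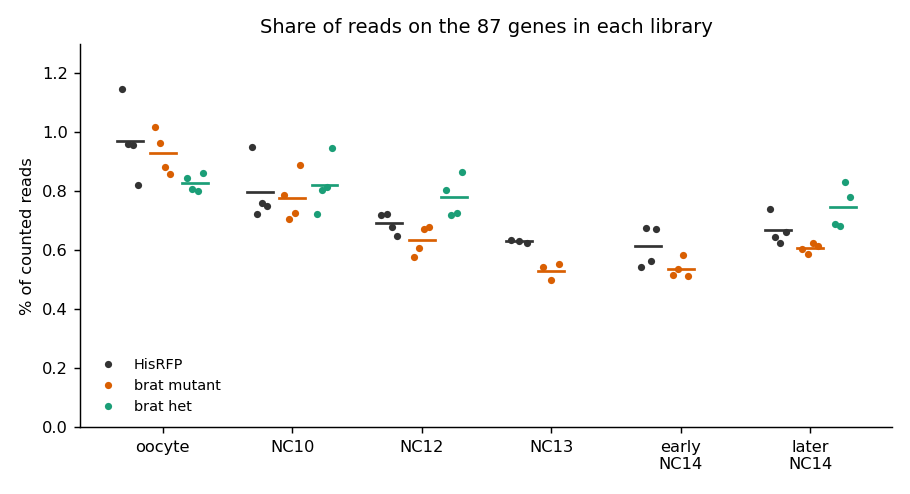
Percent of counted reads on the 87 genes (vertical axis, from 0) in each library (points) at the 6 stages, coloured by genotype, with lines through the group means. *HisRFP* means fall from 0.972% in oocytes to 0.614% at early NC14, and *brat* hets are above *brat* mutants at NC12 and later NC14.

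From the oocyte to NC12 no OXPHOS gene was called higher in *HisRFP*, and a few fell steeply, led by the complex III core protein gene *UQCR-C2*. Tests were made with edgeR (quasi-likelihood F) on genes with at least 50 reads in the libraries compared. A gene is named as called where its log2 fold change was above 1 or below -1 and its adjusted p (Benjamini-Hochberg over all genes tested) was under 0.05. Between oocytes and NC10, 3 of 60 OXPHOS genes were called lower and 0 higher, where over all genes 10.7% were called lower and 1.94% higher. The median log2 fold change of the 60 was -0.32 and that of all genes -0.04, and 53 of 60 were negative. Between NC10 and NC12, 2 of 60 were called lower (13.1% of all genes) and 0 higher (1.73% of all genes), with medians of -0.07 and 0.06. From NC12 to NC13, 3 of 60 were called lower (19.9% of all genes) and 0 higher (2.52% of all genes), while 17 passed the adjusted p alone upwards and 8 downwards, against 21.7% and 24.3% of all genes, and the medians were 0.26 and 0.03. DESeq2's Wald test called 0 OXPHOS genes higher in each of these 3 steps, and 4, 2 and 4 lower, and edgeR's unadjusted p was under 0.05 for 21, 13 and 33. Without *HisRFP* oocyte B or NC10 A the first step had 6 and 5 calls, and without NC10 A or C or NC12 C or D the next had 1. In each of these steps the share of OXPHOS genes called was lower than that of all genes.

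*UQCR-C2* (FBgn0250814, 3L from 16584124 to 16586111, plus strand) had 217, 162, 261 and 200.4 CPM in the 4 *HisRFP* oocytes (A to D), 52.2, 36.1, 39.6 and 42.0 CPM at NC10 and 15.3, 10.9, 7.17 and 10.1 CPM at NC12. It reached 2.97, 3.64 and 3.84 CPM in the 3 NC13 embryos and 2.01, 2.46, 4.29 and 6.33 CPM at early NC14. Every library was thus below every library of the stage before until NC13, and the NC13 and early NC14 values overlapped. The log2 fold changes were -2.39 to NC10 (SE 0.20, adjusted p = 4.24e-05, edgeR), -1.90 to NC12 (adjusted p = 0.00101) and -1.65 to NC13 (adjusted p = 0.0221). By later NC14 the gene was back at 44.1, 30.3, 43.2 and 41.9 CPM, above every early NC14 embryo (log2 fold change 3.55, SE 0.37, adjusted p = 0.000206) and below every oocyte.

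*UQCR-C1*, the other core protein of complex III, followed a shallower course. It had 432, 330.4, 514 and 434 CPM in *HisRFP* oocytes, 190.2, 176, 149 and 180.0 CPM at NC12 and 188, 108, 126 and 118 CPM at later NC14. Its oocytes lay above all *HisRFP* embryos, whereas the NC12 and later NC14 values overlapped. The change to NC10 was -0.89 on the log2 scale (adjusted p = 0.00582, edgeR) and was not called. *UQCR-Q* ranged from 53.5 to 144 CPM over all *HisRFP* libraries. *UQCR-6.4* was called lower both to NC10 (log2 fold change -1.69, SE 0.30, adjusted p = 0.00346) and to NC12 (log2 fold change -1.05, SE 0.31, adjusted p = 0.028), from 47.0, 39.9, 26.4 and 16.6 CPM in oocytes to 6.50, 6.40, 3.14 and 3.25 CPM at NC12. The call to NC12 was lost without NC10 A or C or NC12 C or D and in the fit of all 62 libraries, with adjusted p up to 0.0763. The oocyte values were widely spread, and all lay above the NC10 values.

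In complex I, *ND-B14.5A* was the gene called lower at the first step, from 48.5, 32.9, 56.4 and 68.5 CPM in *HisRFP* oocytes to 30.0, 17.3, 17.4 and 19.6 CPM at NC10 (log2 fold change -1.38, SE 0.29, adjusted p = 0.00833), with no overlap between these groups. *ND-51* (FBgn0031771, 2L from 6060842 to 6062757, minus strand) encodes the flavoprotein that binds NADH. It had 188, 151, 142 and 136 CPM in *HisRFP* oocytes and 100.0, 87.7, 80.4 and 83.7 CPM at NC12, and 41.4, 27.2 and 41.5 CPM at NC13 (log2 fold change -1.27, SE 0.19, adjusted p = 0.0221). At early NC14 its values split, with 8.39, 33.3, 6.26 and 28.0 CPM in A to D, and at later NC14 they were 29.8, 15.3, 18.7 and 26.4 CPM. Every value from NC13 on was below every value at NC12.

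*SdhA* (FBgn0261439, 2R from 19391863 to 19395971, minus strand) was spread widely in *HisRFP* oocytes, with 278, 161, 799 and 692 CPM in A to D, and fell in embryos. At NC12 the gene had 129.8, 133, 163 and 149 CPM, and at NC13 71.0, 48.5 and 63.9 CPM (log2 fold change -1.24, SE 0.16, adjusted p = 0.0221). At later NC14 it had 47.8, 39.0, 64.4 and 53.0 CPM, with every embryo below every NC12 embryo. The same oocytes split the other way for *ATPsynbeta*, with 1766, 1350.4, 985 and 781 CPM in A to D, and the changes from oocytes to NC10 were -1.46 for *SdhA* (SE 0.51, adjusted p = 0.0657, edgeR) and -0.37 for *ATPsynbeta* (SE 0.21, adjusted p = 0.207) on the log2 scale. *SdhB*, the partner of *SdhA*, stayed between 115 and 216 CPM over all *HisRFP* libraries and was called at no stage step in *HisRFP*.

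**Figure D2:**
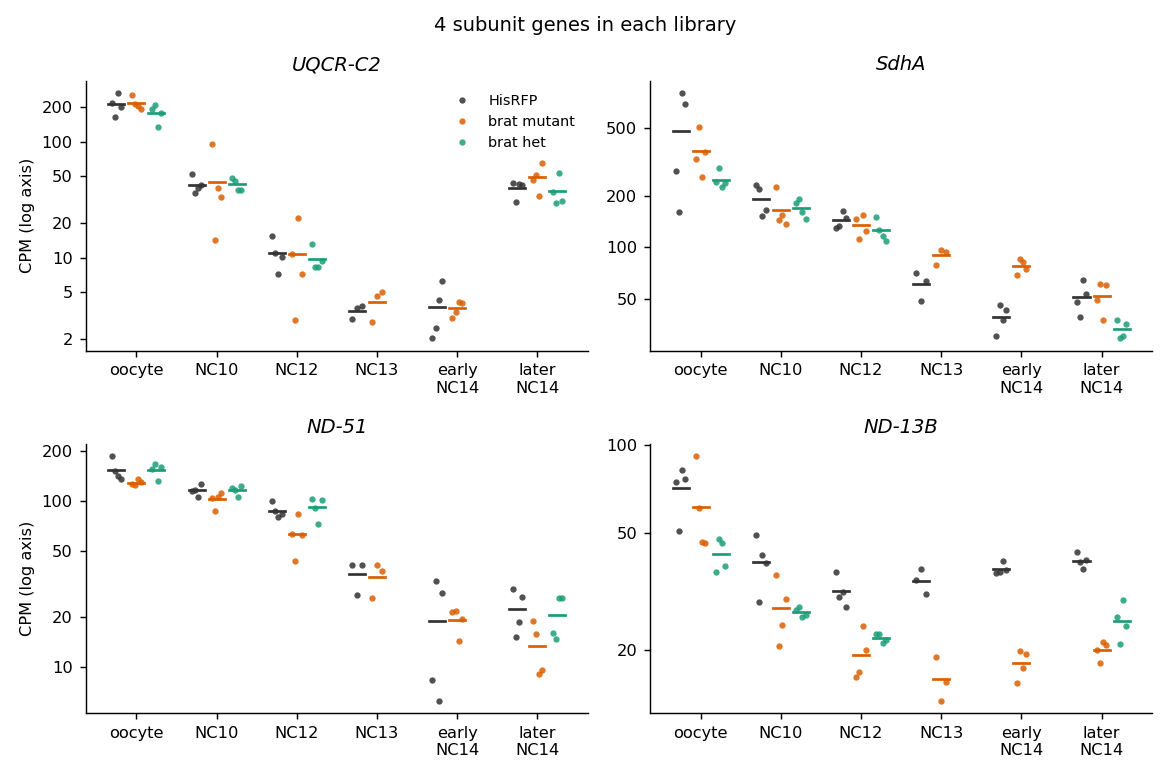
CPM (vertical axes, log scale) of *UQCR-C2*, *SdhA*, *ND-51* and *ND-13B* in each library (points) at the 6 stages, coloured by genotype, with lines through the group means. *UQCR-C2* goes from 210.0 CPM in *HisRFP* oocytes through 3.48 CPM at NC13 to 39.9 CPM at later NC14, and *ND-13B* lies lower in *brat* mutants than in *HisRFP* from NC12 on.

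Leaving out *HisRFP* NC12 A, B or D or NC13 A lost all 3 calls from NC12 to NC13, and without NC13 C, whose zygotic marker sum stood apart, a choice made after seeing the data, 4 genes were called lower. From NC13 to early NC14, 0 of 64 OXPHOS genes were called in either direction by edgeR or by DESeq2, and 11 had an unadjusted p under 0.05. Over all genes edgeR called 0% in each direction, with 1800 genes at an unadjusted p under 0.05, whereas DESeq2 called 1.28% higher and 3.91% lower, and the fit of all 62 libraries 4.72% and 13.3%, with 3 OXPHOS genes higher. From early to later NC14, 3 of 64 were called higher (*UQCR-C2*, *SdhBL* and *COX7A*, against 23% of all genes) and 0 lower (11.2% of all genes), where DESeq2 called 4 and 0 and 16 had an unadjusted p under 0.05. *COX7A*, a complex IV subunit, had 14.8, 32.4, 20.3 and 33.5 CPM at early and 68.9, 31.2, 43.1 and 49.7 CPM at later NC14 (log2 fold change 1.09, SE 0.31, adjusted p = 0.0168), and a later embryo (B) lay within the early range. The call was lost in 5 of 15 alternatives (without early A or C or later A, with a replicate block and in the fit of all 62 libraries), with log2 fold changes down to 0.88 and adjusted p up to 0.0539.

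Between NC12 and later NC14 in *HisRFP*, most OXPHOS genes moved up relative to the median of all genes, while a few fell. These stages were sequenced to 8036126 to 16537207 and 6514331 to 13635751 reads. The mean share of counted reads on all OXPHOS genes together did not rise (0.693% at NC12 and 0.670% at later NC14), and the libraries overlapped. In *HisRFP*, 9 of 62 were called higher and 3 lower, where 21.7% of all genes were called higher and 28.2% lower. At the adjusted p alone, 42 of 62 were higher and 7 lower, against 39.4% and 38% of all genes. The median log2 fold change of the 62 genes was 0.64 and that of all genes 0.03. Most rises were thus smaller than 2-fold. The counts depend on the scaling: the calls were 16 higher and 2 lower with RLE factors and with DESeq2, 3 and 4 with library totals and 6 and 4 in a fit of all 62 libraries, so the share of calls that were higher went from 75% to 88.9%, 42.9% and 60%. The median of all genes moved with the scaling, to 0.15, -0.30 and -0.20, and the OXPHOS median stayed 0.62 above it in each. Scaling shifts all genes of a comparison nearly alike, so this gap was bound to stay and is no test of the rise. Changes are given on the TMM scale of the 2 groups compared, and ratios of the CPM means, scaled over all libraries, differ from them for that reason.

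By complex, the numbers past the adjusted p alone in *HisRFP* were 23 higher and 3 lower of 32 genes in complex I, 1 and 1 of 5 in complex II, 2 and 0 of 5 in complex III, 7 and 0 of 8 in complex IV and 9 and 3 of 12 in complex V. The median log2 fold changes in the same order were 0.61, 0.14, 0.34, 0.77 and 0.76. In complex IV *COX7A* was the gene that did not pass, and the counts of complexes II and V include the copies *SdhBL* and *ATPsynbetaL*. *COX8*, a small subunit of complex IV, rose from 46.8, 36.7, 48.4 and 45.3 CPM at NC12 to 94.6, 90.7, 78.2 and 78.1 CPM at later NC14 (log2 fold change 1.17, SE 0.13, adjusted p = 2.82e-05), and *COX7B* from 81.7, 76.1, 84.2 and 67.3 to 129, 141, 123 and 151 CPM (log2 fold change 1.04, SE 0.11, adjusted p = 3.08e-05). In both, every later NC14 embryo was above every NC12 embryo. The fold of *COX8* missed the threshold with library totals and in the fit of all 62 libraries, and that of *COX7B* also with no filter and without later NC14 D (log2 fold change at least 0.72, adjusted p up to 0.000742). *COX5A* had 152, 113, 136 and 119.6 and then 203, 173, 191 and 167 CPM, which passed the adjusted p alone (log2 fold change 0.72, adjusted p = 0.000404).

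In complex I, the accessory subunit gene *ND-ASHI* was called higher, from 44.4, 41.2, 46.3 and 42.7 to 67.7, 78.9, 81.8 and 80.1 CPM (log2 fold change 1.04, SE 0.11, adjusted p = 2.88e-05), and so were *ND-B14* (log2 fold change 1.04) and *ND-PDSW* (log2 fold change 1.04). *ND-42* had 171, 144, 173 and 155 CPM at NC12 and 262, 276, 261 and 237 CPM at later NC14 (log2 fold change 0.91, adjusted p = 2.25e-05), and *ND-MLRQ* had 86.7 to 111 CPM over the 4 libraries of NC12 and 118 to 158 CPM over those of later NC14, without overlap (log2 fold change 0.73, adjusted p = 0.00074). Both passed the adjusted p alone. Against them, *ND-51* was called lower (log2 fold change -1.74, SE 0.21, adjusted p = 5.59e-05), and *ND-ACP*, the mitochondrial acyl carrier protein, fell from 97.0, 89.7, 73.7 and 78.4 to 42.1, 36.8, 32.1 and 42.8 CPM, past the adjusted p alone (log2 fold change -0.92, adjusted p = 0.000177). *SdhA* in complex II was also called lower (log2 fold change -1.26, SE 0.17, adjusted p = 0.000128).

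In the ATP synthase, *ATPsynO*, which encodes a subunit of the stalk that holds the catalytic head, was called higher, from 160.3, 148, 181 and 151 to 311, 296, 264 and 256 CPM (log2 fold change 1.03, SE 0.10, adjusted p = 1.95e-05). *ATPsyngamma* (FBgn0020235, 3R from 29747704 to 29749163, minus strand), the rotor stalk, was called lower, from 209, 202, 181 and 202 to 88.6, 89.0, 80.4 and 64.5 CPM (log2 fold change -1.07, SE 0.11, adjusted p = 2.3e-05). The 2 most abundant mRNAs per length also fell past the adjusted p alone. *ATPsynC* had 1277, 1271, 1209 and 1272 CPM at NC12 and 840.2, 809, 719 and 666 CPM at later NC14 (log2 fold change -0.51, adjusted p = 0.0008), and *ATPsynbeta* 830.4, 854, 753 and 792 and 716, 452, 527 and 428 CPM (log2 fold change -0.38, adjusted p = 0.0498). Subunits of the same enzyme therefore moved in opposite directions, with *ATPsynO*, *ATPsynB*, *ATPsynCF6*, *ATPsynD*, *ATPsynE*, *ATPsynF*, *ATPsynG* and *ATPsyndelta* higher and *ATPsynC*, *ATPsynbeta* and *ATPsyngamma* lower at the adjusted p alone.

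From NC12 to NC13, a step that cannot be told apart from depth, the 17 genes higher at the adjusted p alone were 9 of complex I, 4 of complex IV and 4 of complex V. Between NC12 and later NC14, 17 of the 17 were also higher at the adjusted p alone. Both comparisons use the same NC12 libraries, so the overlap is not independent, and the overlap over all genes is not given here. *ATPsynO* had 212, 294 and 219 CPM at NC13 and 291, 272, 357 and 275 CPM at early NC14, and *COX8* 67.2, 88.4 and 59.4 and 82.9, 89.3, 92.6 and 82.6 CPM. Their NC13 embryos already lay above all NC12 embryos. *ND-42* had 209.7, 281 and 201 CPM at NC13 and 296, 254, 338 and 271 CPM at early NC14, against which the later NC14 values above were not higher. The 8 lower genes were *UQCR-C2*, *UQCR-C1*, *ND-51*, *ND-ACP*, *ND-B16.6*, *SdhA*, *COX7A* and *ATPsynbeta*. From early to later NC14, the adjusted p alone was passed by 11 of 64 genes upwards and 1 downwards, against 25.6% and 21.7% of all genes, among them *COX4*, with 124, 161, 142 and 153 and then 248, 229, 216 and 224 CPM (log2 fold change 0.81, adjusted p = 0.000669, edgeR), without overlap.

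**Figure D3:**
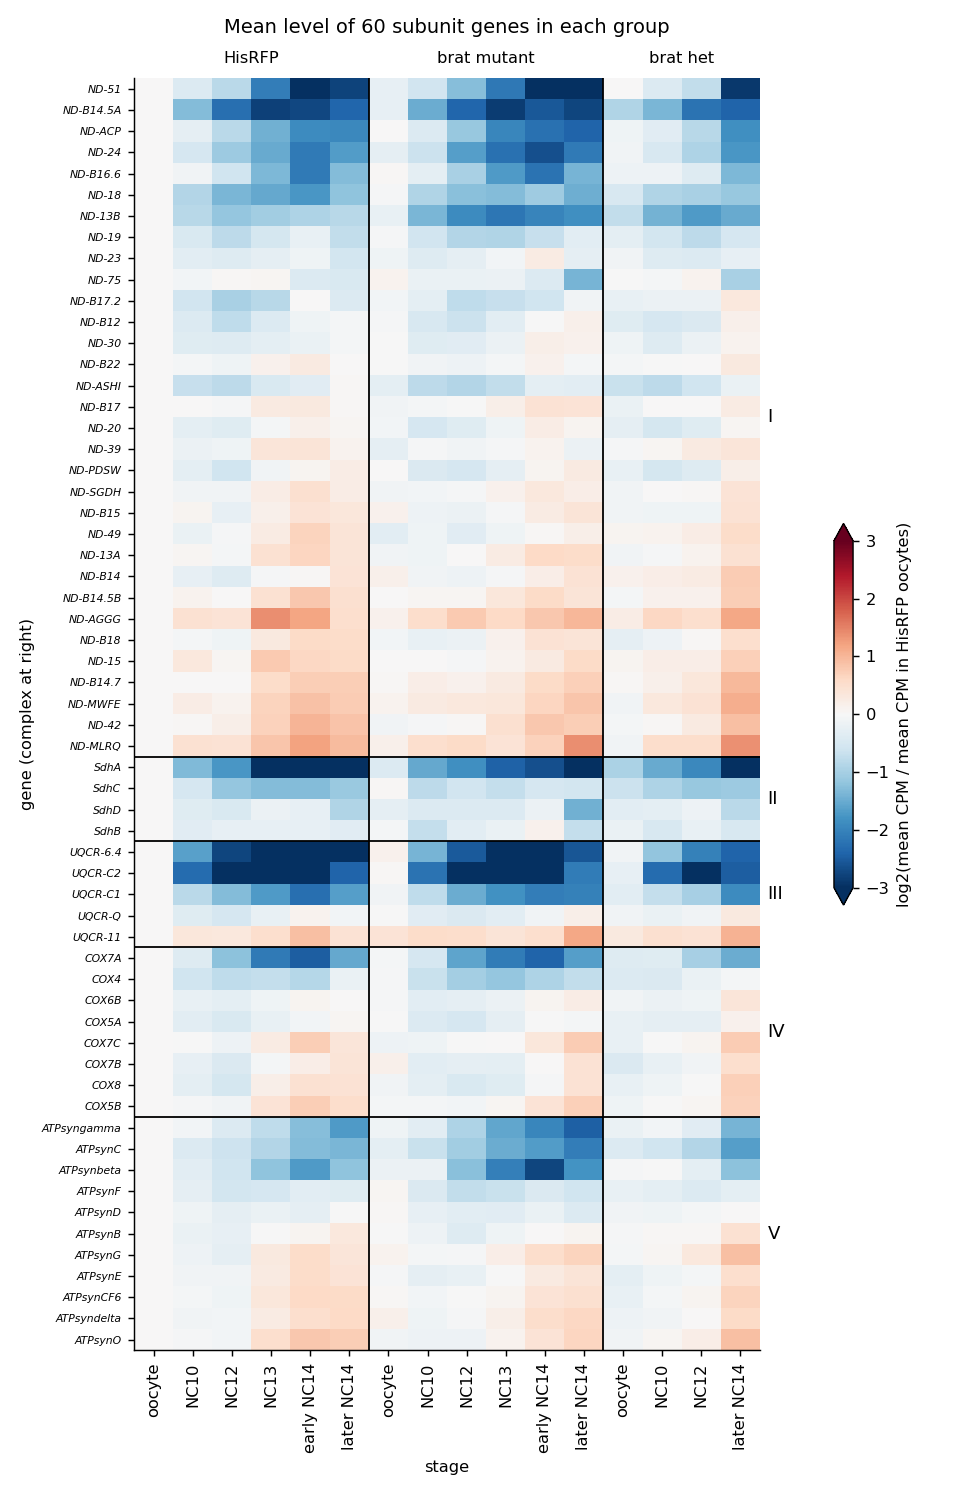
Mean level of the 60 genes without an L name (one line each, ordered by complex) in the 16 groups, as log2 of the group's mean CPM over the gene's mean CPM in *HisRFP* oocytes (colour scale, held at -3 and 3). *UQCR-C2* is lowest at NC13 and early NC14 (3.48 and 3.77 CPM in *HisRFP*), and *ND-51* and *SdhA* are lowest in NC14.

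Over the 6 *HisRFP* stages, the highest stage mean of a gene was less than 1.5 times the lowest for 13 of the 60 genes and less than 2 times for 41, with a median ratio of 1.76. It was over 3 times for 13 genes. The highest *HisRFP* mean was in oocytes for 25 of the 60, at early NC14 for 24 and at later NC14 for 8, and 27 had their lowest mean at NC12. These means are scaled over all 62 libraries, and the order of early and later NC14 depends on the scaling. In the fit of these 2 groups alone, 43 of 64 OXPHOS genes had a positive change from early to later NC14 (median 0.11). In the fit of all 62 libraries the median was -0.04. Peak stages over all genes are not given here. The widest ranges belonged to *UQCR-C2* and *UQCR-6.4* of complex III, *SdhA* of complex II and *ND-51* and *ND-B14.5A* of complex I, with ratios of 6.91 to 60.3, highest in oocytes and lowest at NC13 or early NC14. The narrowest belonged to *ATPsynD* (1.20), *ND-B17* (1.24) and *SdhB* (1.27).

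In the *brat* genotypes, *UQCR-C2* and *UQCR-6.4* were again called lower from oocyte to NC10. In *brat* mutants, 5 of 60 OXPHOS genes were called lower from oocyte to NC10 (9.12% of all genes) and 0 higher (3.29%), with a median of -0.32 against 0.00 for all genes. These were *UQCR-C2* (-2.30), *UQCR-6.4* (-1.57), *ND-B14.5A* (-1.29), *ND-13B* (-1.22) and *SdhA* (-1.19), with log2 fold changes in brackets. *ND-13B* and *SdhA* had 91.8, 60.9, 46.7 and 46.1 and 331, 508, 259 and 362 CPM in *brat*-mutant oocytes and 35.9, 20.6, 24.3 and 29.7 and 227, 145, 155 and 138 CPM at NC10, without overlap. The call of *ND-13B* was lost without oocyte A or NC10 B or C. In *brat* hets, *UQCR-C2* (-2.09) and *UQCR-6.4* (-1.11) were called lower (16% of all genes) and 0 of 60 higher (3.21%), with medians of -0.01 and -0.01. DESeq2 also called 0 higher in both, and edgeR's unadjusted p was under 0.05 for 30 genes in *brat* mutants and 18 in *brat* hets. Eggshell mRNA was abundant in the *brat* het oocytes and low in the *brat*-mutant oocytes, and its part in these values was not tested. From NC10 to NC12, *ATPsynbeta* alone was called lower in *brat* mutants (0.765% of all genes) and *UQCR-C2* alone in *brat* hets (13.4% of all genes), and 0 of 60 were called higher in either (1.47% and 2.65% of all genes), by edgeR or by DESeq2, with 15 and 19 genes at an unadjusted p under 0.05. The background in *brat* mutants depends on the tool: DESeq2 called 3 OXPHOS genes and 12.1% of all genes lower, and the fit of all 62 libraries 4 and 11.8%. *UQCR-C2* had 94.4, 14.2, 39.4 and 32.9 CPM at NC10 in *brat* mutants, and the change to NC12 was -2.03 on the log2 scale (adjusted p = 0.0737). Leaving out *brat*-mutant NC12 B lost the call of *ATPsynbeta*, and 3 genes were called without NC12 C and 2 without NC10 B. *ATPsynbeta* went from 1019.5, 1098, 1107 and 1081 CPM at NC10 to 563, 392, 594 and 491 CPM at NC12 in *brat* mutants (log2 fold change -1.01, SE 0.13, adjusted p = 0.00549), with no overlap, and from 1169, 1228, 1238 and 1210.4 to 1119, 986, 846 and 1018 CPM in *brat* hets.

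From NC12 to later NC14, *brat* mutants had 11 of 63 OXPHOS genes called higher and 4 lower (25.8% and 27.9% of all genes), and *brat* hets 5 and 2 of 63 (20% and 27.7% of all genes). At the adjusted p alone the numbers were 39 higher and 7 lower in *brat* mutants (38.8% and 35.6% of all genes) and 44 and 10 in *brat* hets (37.3% and 35.5% of all genes). The medians were 0.73 and 0.67, against 0.08 and 0.06 for all genes. With library totals the calls were 4 higher and 7 lower in *brat* mutants and 2 and 6 in *brat* hets. The share of calls that were higher thus went from 73.3% to 36.4% and from 71.4% to 25%, and with RLE factors it was 90.9% and 77.8%. The OXPHOS median was 0.61 to 0.65 above that of all genes under each scaling, a gap that scaling can hardly change. Higher in all 3 genotypes at the adjusted p alone were 35 genes, of which *COX8*, *UQCR-C2* and the copy *SdhBL* were called in all 3. The call of *COX8* in *brat* hets was lost in 7 of 15 alternatives, among them leaving out NC12 A, B or C or later NC14 C, with log2 fold changes of at least 0.68 and adjusted p up to 0.00415. Lower in all 3 were 5 genes, *ND-51*, *SdhA*, *ND-ACP*, *ATPsyngamma* and *ATPsynC*, of which *ND-51* and *SdhA* were called in all 3. The share of all genes higher or lower in all 3 genotypes is not given here, so these counts have no background beside them and cannot be read as particular to OXPHOS genes. The number called higher in *brat* mutants was 7 without NC12 A or C or later NC14 C and 4 without later NC14 D, and in *brat* hets it was 3 without NC12 A or B and 9 without later NC14 B.

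*UQCR-C2* had 251, 209, 204 and 193 CPM in *brat*-mutant oocytes, 10.8, 2.87, 21.8 and 7.22 CPM at NC12 and 46.2, 51.6, 33.6 and 65.9 CPM at later NC14, and in *brat* hets 189.8, 208, 133 and 175, then 13.2, 8.30, 8.25 and 9.29 and 36.9, 29.6, 53.8 and 30.6 CPM. Its dip was present in every genotype, with later NC14 above NC12 in every library. *ND-51* had 63.3, 43.9, 83.5 and 62.4 CPM at NC12 and 18.9, 15.8, 9.13 and 9.64 CPM at later NC14 in *brat* mutants (log2 fold change -1.99, SE 0.26, adjusted p = 7.61e-05), and 103, 91.7, 73.3 and 102 and 16.0, 14.8, 26.3 and 26.0 CPM in *brat* hets (log2 fold change -1.89, SE 0.23, adjusted p = 7.28e-05). *SdhA* had 146, 113, 154 and 124 and 49.0, 61.0, 37.6 and 59.9 CPM in *brat* mutants (log2 fold change -1.11, SE 0.19, adjusted p = 0.00033) and 150.4, 127, 117 and 109 and 37.4, 29.2, 30.0 and 35.4 CPM in *brat* hets (log2 fold change -1.66, SE 0.14, adjusted p = 8.29e-06). For both genes the stages did not overlap in either genotype.

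Whether a stage change differed between *brat* mutants and *HisRFP* was tested as an interaction in edgeR. From oocyte to NC10, 0 of 60 OXPHOS genes were called (0.13% of all genes) and 0 had an unadjusted p under 0.05. From NC12 to later NC14, 0 of 63 were called (5.83% of all genes) and 6 had an unadjusted p under 0.05. DESeq2 was not run for the interactions. At the adjusted p alone, 0 of the 63 were higher and 1 lower, where 369 and 325 of all 8266 genes tested were. The OXPHOS gene was *ND-75* (FBgn0017566, X from 8248651 to 8251687, minus strand), an iron-sulfur subunit of complex I. Its change differed by -0.71 (*brat* mutant minus *HisRFP*) on the log2 scale (SE 0.21, adjusted p = 0.0444). *ND-75* had 201, 146, 229.7 and 211 CPM at NC12 and 143, 132, 157 and 123 CPM at later NC14 in *HisRFP*, and 166, 165, 171 and 159 and 91.1, 71.4, 58.9 and 69.0 CPM in *brat* mutants. At later NC14 every *brat*-mutant embryo was below every *HisRFP* embryo (log2 fold change -0.98, SE 0.15, adjusted p = 0.0017), which misses the fold threshold. The *brat* hets had 84.9, 94.4, 107 and 105 CPM, also below every *HisRFP* embryo (log2 fold change -0.46, adjusted p = 0.072).

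Few OXPHOS genes were called between genotypes at a given stage. Between *brat*-mutant and *HisRFP* samples, 0 of 60 were called in oocytes (1.15% of all genes), at NC10 (3.27%) and at NC12 (5.64%), by edgeR or by DESeq2, and 1, 2 and 8 had an unadjusted p under 0.05. At NC13, 1 of 60 was called (3.91% of all genes), 2 of 64 at early NC14 (13.8%) and 2 of 63 at later NC14 (13.7%). At each stage the share of OXPHOS genes called was below that of all genes, but in oocytes, at NC10 and at NC13 too few genes were tested to tell it from that share. The later NC14 calls were 1 higher and 1 lower, and *ND-13B* missed the fold threshold with library totals and *ND-51L1* the adjusted p in the fit of all 62 libraries. Without *brat*-mutant later NC14 A 4 genes were called, and without B 1. At the adjusted p alone, 1 gene was higher and 4 lower at NC12 (6.38% and 5.04% of all genes), 0 and 2 at NC13 (3.02% and 1.34%), 2 and 9 at early NC14 (12.7% and 8.9%) and 2 and 7 at later NC14 (11.7% and 11.8%). Downwards the OXPHOS share was thus above that of all genes at NC12, NC13 and early NC14, by few genes, and below it at later NC14. Upwards it was below at each of these stages. The medians of the OXPHOS genes over the 6 stages were -0.03, -0.04, 0.03, -0.21, -0.15 and -0.06, beside -0.03, 0.00, -0.01, -0.02, -0.06 and -0.03 for all genes. At NC13, 50 of 60 OXPHOS genes had a negative log2 fold change.

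The gene called from NC13 on was *ND-13B* (FBgn0047038, 3L from 10693184 to 10694108, minus strand), an accessory subunit of complex I. In *HisRFP* it had 74.9, 50.7, 82.4 and 76.6 CPM in oocytes and 36.7, 30.3, 31.6 and 28.0 CPM at NC12, and in *brat* mutants 91.8, 60.9, 46.7 and 46.1 and 16.1, 16.8, 24.1 and 19.9 CPM. The oocytes overlapped, and at NC12 every *brat*-mutant embryo was below every *HisRFP* embryo (log2 fold change -0.70, adjusted p = 0.0267, edgeR). At NC13 the gene had 34.5, 37.8 and 31.0 CPM in *HisRFP* and 18.9, 13.3 and 15.5 CPM in *brat* mutants (log2 fold change -1.14, SE 0.20, adjusted p = 0.034). At early NC14 it had 36.4, 37.0, 40.3 and 37.3 and 15.3, 19.8, 17.2 and 19.3 CPM (log2 fold change -1.10, SE 0.16, adjusted p = 0.00104), and at later NC14 43.0, 39.8, 37.6 and 40.3 and 20.0, 18.0, 21.2 and 20.8 CPM (log2 fold change -1.05, SE 0.14, adjusted p = 0.000755). The 2 genotypes did not overlap at any stage from NC12 on. The NC13 call rests on 3 embryos a group and was lost without *brat*-mutant C or D or without *HisRFP* A, C or D, with adjusted p up to 0.225 over its alternatives, and it was kept without the 2 NC13 embryos whose zygotic marker sum stood apart (log2 fold change -1.15, adjusted p = 0.00686, chosen after seeing the data). At later NC14 the value lay between -1.08 and -0.99 under the alternatives, so that it missed the fold threshold in 2 of 15.

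In *brat* hets *ND-13B* was lower as well, without reaching the fold threshold. It had 36.8, 47.8, 46.4 and 38.7 CPM in oocytes, 27.2, 27.9, 25.9 and 26.3 CPM at NC10, 22.6, 22.7, 21.0 and 21.5 CPM at NC12 and 25.8, 20.9, 29.6 and 24.1 CPM at later NC14. At each of these stages every *brat* het sample was below every *HisRFP* sample, with log2 fold changes of -0.86 (adjusted p = 0.0406), -0.60 (adjusted p = 0.0332), -0.48 (adjusted p = 0.0265) and -0.63 (adjusted p = 0.0469) in edgeR. Both comparisons use the same *HisRFP* libraries. Compared directly, *brat*-mutant and *brat* het embryos at later NC14 overlapped in *ND-13B* (log2 fold change -0.35, SE 0.18, adjusted p = 0.319).

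The ATP synthase genes *ATPsynbeta*, *ATPsyngamma* and *ATPsynC* were lower in *brat* mutants than in *HisRFP* at some stages, past the adjusted p alone. *ATPsynbeta* had 563, 392, 594 and 491 CPM against 830.4, 854, 753 and 792 CPM at NC12 (log2 fold change -0.64, adjusted p = 0.0109, edgeR), and 327, 283 and 274 against 543, 541 and 495 CPM at NC13 (log2 fold change -0.86, adjusted p = 0.0119). No *brat*-mutant embryo of these stages reached the *HisRFP* range. At early NC14 the *HisRFP* embryos had 146, 649.6, 139 and 567 CPM, 2 below and 2 far above the *brat*-mutant embryos with 205, 204, 159.8 and 159.6 CPM, and the difference did not pass the test (log2 fold change -1.05, adjusted p = 0.135). The zygotic marker sum of these *HisRFP* embryos was 4807, 3340, 6788 and 4899 CPM in A to D, and its part in this split was not tested. *ATPsynC* was lower at NC12 (log2 fold change -0.38, adjusted p = 0.0178) and at later NC14, with 504, 499.8, 534 and 313 against 840.2, 809, 719 and 666 CPM (log2 fold change -0.75, adjusted p = 0.0117).

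*ATPsyngamma* had 58.7, 52.2, 40.8 and 42.9 CPM in *brat*-mutant embryos at later NC14, 80.4, 89.1, 103 and 127 CPM in *brat* hets and 88.6, 89.0, 80.4 and 64.5 CPM in *HisRFP*. It was the 1 of 63 OXPHOS genes called between *brat*-mutant and *brat* het embryos at that stage (1.96% of all genes, log2 fold change -1.06, SE 0.19, adjusted p = 0.0162), without overlap between these groups. Against *HisRFP* the log2 fold change was -0.77 (adjusted p = 0.00806), also without overlap. The call against *brat* hets was lost without *brat*-mutant B or *brat* het D. *COX4* of complex IV was lower in *brat*-mutant embryos at later NC14 both against *HisRFP* (log2 fold change -0.58, adjusted p = 0.00645) and against *brat* hets (log2 fold change -0.70, adjusted p = 0.0394), with means of 157, 229 and 253 CPM in *brat* mutants, *HisRFP* and *brat* hets. At this stage the zygotic marker sum was lower in every *brat*-mutant embryo than in every *HisRFP* embryo, and its part in these values was not tested.

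Some genes were higher in *brat* mutants. *SdhA* had 68.6, 85.2, 82.3 and 74.4 CPM in *brat*-mutant and 30.2, 45.9, 37.7 and 43.1 CPM in *HisRFP* embryos at early NC14, without overlap (log2 fold change 0.96, SE 0.15, adjusted p = 0.00159). At later NC14 it had 49.0, 61.0, 37.6 and 59.9 and 47.8, 39.0, 64.4 and 53.0 CPM, which overlapped (log2 fold change -0.02, adjusted p = 0.956). *SdhC*, a membrane anchor of complex II, was higher at NC12 (log2 fold change 0.62, adjusted p = 0.0248) and at early NC14 (log2 fold change 0.77, adjusted p = 0.00896), with 32.5 against 18.7 CPM at the latter. *SdhB* had 186, 172, 241 and 173 against 151, 137, 159 and 157 CPM at early NC14 (log2 fold change 0.33, adjusted p = 0.129). *UQCR-11* of complex III was lower at early NC14 (log2 fold change -0.42, adjusted p = 0.0234) and higher at later NC14 (log2 fold change 0.67, adjusted p = 0.0115). None of them was called.

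Between *brat* het and *HisRFP* samples, edgeR called 0 of 60 OXPHOS genes in oocytes (1.92% of all genes), at NC10 (3.44%) and at NC12 (4.37%), and 0 of 63 at later NC14 (3.71%). At an unadjusted p under 0.05 there were 20, 8, 23 and 20, and DESeq2 called 1 in oocytes and 0 at the other stages. The medians were -0.24, -0.01, 0.21 and 0.16, against -0.05, -0.01, -0.00 and 0.00 for all genes. In oocytes 57 of 60 OXPHOS genes had a negative value, and at NC12 56 of 60 a positive one. The oocyte groups differ in eggshell mRNA, and without *HisRFP* oocyte B 2 genes were called. At NC12 the genes past the adjusted p alone were *ND-B17.2* (0.84), *ND-B14* (0.69), *ATPsynG* (0.61), *COX4* (0.61), *ATPsynbeta* (0.34) and *ND-49* (0.31) upwards (4.96% of all genes) and *ND-13B* downwards (4.79%). *ND-B17.2*, an accessory subunit of complex I, had means of 43.1 and 24.8 CPM at NC12 and 60.0 and 36.3 CPM at later NC14 (log2 fold change 0.77, adjusted p = 0.0243). Between *brat*-mutant and *brat* het oocytes, 0 of 60 were called (7.5% of all genes) by edgeR or by DESeq2, with 17 at an unadjusted p under 0.05 and 3 higher (*COX7B*, *SdhC* and *ND-B14.5A*) and 0 lower at the adjusted p alone, against 3.66% and 9.33% of all genes.

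The remaining differences between *brat* mutants and *HisRFP* past the adjusted p alone were small. At early NC14 the genes lower in *brat* mutants besides *ND-13B*, *ATPsynbetaL*, *UQCR-11* and *ATPsyngamma* (-0.70) were *ND-49* (-0.67), *ND-MLRQ* (-0.54), *COX8* (-0.51), *COX7C* (-0.43) and *ATPsynO* (-0.43), given as log2 fold changes. *ND-49*, a subunit of the peripheral arm of complex I, had 153, 136, 194 and 116 CPM in *brat*-mutant and 226, 211, 264 and 230.1 CPM in *HisRFP* embryos, without overlap. *COX8* had 55.1, 63.3, 67.8 and 63.1 against 82.9, 89.3, 92.6 and 82.6 CPM, also without overlap. At later NC14 *ATPsynD* (-0.43) and *ND-ACP* (-0.50) were lower besides the genes named above, with adjusted p of 0.0172 and 0.0417 in edgeR. At that stage *COX8* had 72.1, 68.7, 102 and 101 against 94.6, 90.7, 78.2 and 78.1 CPM (log2 fold change -0.03, adjusted p = 0.924), which overlapped.

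**Figure D4:**
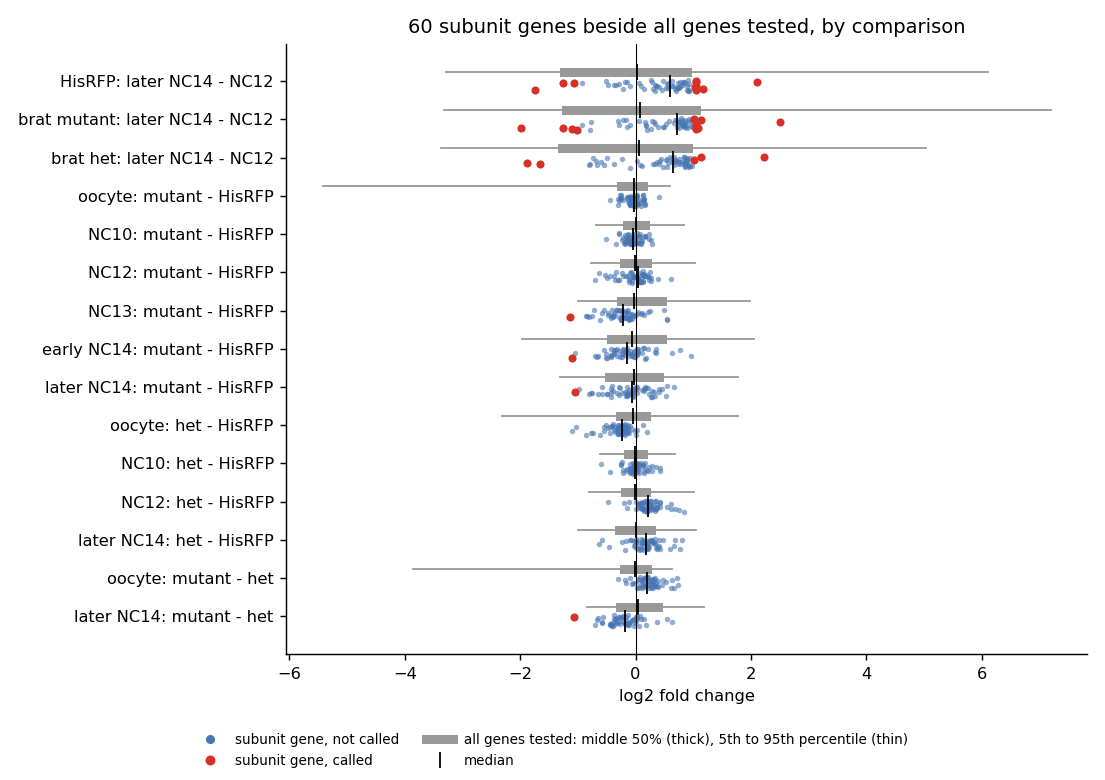
Log2 fold changes (horizontal axis) of the 60 genes without an L name (points) in each comparison (lines), with the median and the central ranges of all genes tested behind them. The points of NC12 to later NC14 lie mostly to the right of the median of all genes in all 3 genotypes (medians 0.64, 0.73 and 0.67 with the L-named genes included), and most points of the genotype comparisons lie within a log2 fold change of 1; the L-named calls are not drawn.

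The L-named copies had few reads before NC13, and some of them rose in NC14. *SdhBL* (FBgn0030975, X from 18894446 to 18896581, plus strand), a copy of the iron-sulfur subunit gene, had at most 2 reads in any *HisRFP* embryo at NC12, and 6.81, 13.2, 7.15 and 19.0 CPM at later NC14. Against a floor of 3 reads per library this is at least 42.2-fold higher (adjusted p = 8.71e-06, edgeR). In *brat* mutants it was at least 27.9-fold higher, with 8.59, 8.54, 7.07 and 8.67 CPM at later NC14 (adjusted p = 1.75e-06), and *brat* hets reached 4.97, 7.43, 2.10 and 5.47 CPM from 0, 0.0589, 1.56 and 0 CPM at NC12 (log2 fold change 4.16, adjusted p = 0.0149). At later NC14 *SdhB* itself had 115, 164, 159.6 and 126 CPM in *HisRFP*, so the copy remained far below the gene it is named for. In *HisRFP* oocytes the copy had 0.287, 1.62, 0.193 and 0 CPM.

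*ATPsynbetaL* (FBgn0036568, 3L from 16097834 to 16100088, plus strand) had 1.63, 4.21, 3.48 and 1.81 CPM in *HisRFP* embryos at later NC14, at least 10.2-fold higher than the floor at NC12, and 1.14, 1.38, 2.95 and 10.7 CPM in *brat* mutants, at least 13.8-fold higher (adjusted p = 4.03e-05 and 0.000332, edgeR). At early NC14 it had 2.64, 0.0913, 2.86 and 0.413 CPM (2 to 58 reads) in *HisRFP* and 0.178, 0.0736, 0.0727 and 0.186 CPM (1 to 4 reads) in *brat* mutants, which was called lower (log2 fold change -3.53, SE 1.05, adjusted p = 0.0381). *HisRFP* A and C, the embryos that were low in *ATPsynbeta*, were the high ones here, and *HisRFP* B lay within the *brat*-mutant range. The call was lost without *HisRFP* A or C and without any 1 of the 4 *brat*-mutant embryos, with adjusted p from 0.0763 to 0.111, and the gene did not pass the filter of filterByExpr.

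*ND-51L1* (FBgn0034251, 2R from 17595267 to 17597409, plus strand) was the 1 OXPHOS gene called higher in *brat* mutants than in *HisRFP* at any stage. At later NC14 it had 4.66, 2.19, 5.55 and 5.62 CPM (19 to 62 reads) in *brat* mutants and 0.814, 0.722, 1.47 and 0.302 CPM (2 to 16 reads) in *HisRFP* (log2 fold change 2.35, SE 0.49, adjusted p = 0.00758), without overlap. *brat* hets had 1.21, 5.76, 2.56 and 1.31 CPM and overlapped both. *ND-51*, the gene it is named for, had 18.9, 15.8, 9.13 and 9.64 CPM in *brat* mutants and 29.8, 15.3, 18.7 and 26.4 CPM in *HisRFP* at that stage (log2 fold change -0.80, adjusted p = 0.0756). Within *brat* mutants the copy was at least 15.3-fold above the floor at NC12 (adjusted p = 1.83e-05). At early NC14 its reads went the other way, with 0 to 46 (64 in all) in *HisRFP* and 0 to 4 (7 in all) in *brat* mutants. That difference did not pass the adjusted p. The *brat* het NC12 library C held most copy reads of its group, with 1.25 CPM of *ND-51L1*, 3.11 of *ATPsynbetaL*, 1.56 of *SdhBL* and 1.09 of *SdhAL*, and the other libraries of the group had at most 0.252 CPM of any of these 4. It was not the only such case. In *HisRFP* oocytes 1 library held 15 of 15 reads of *COX4L*, 1 held 9 of 9 of *ND-51L1* and 1 held 35 of 40 of *SdhBL*, whereas *ATPsynbetaL* had 0. None of the other L-named copies passed the adjusted p in a comparison in which it was tested.

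**Figure D5:**
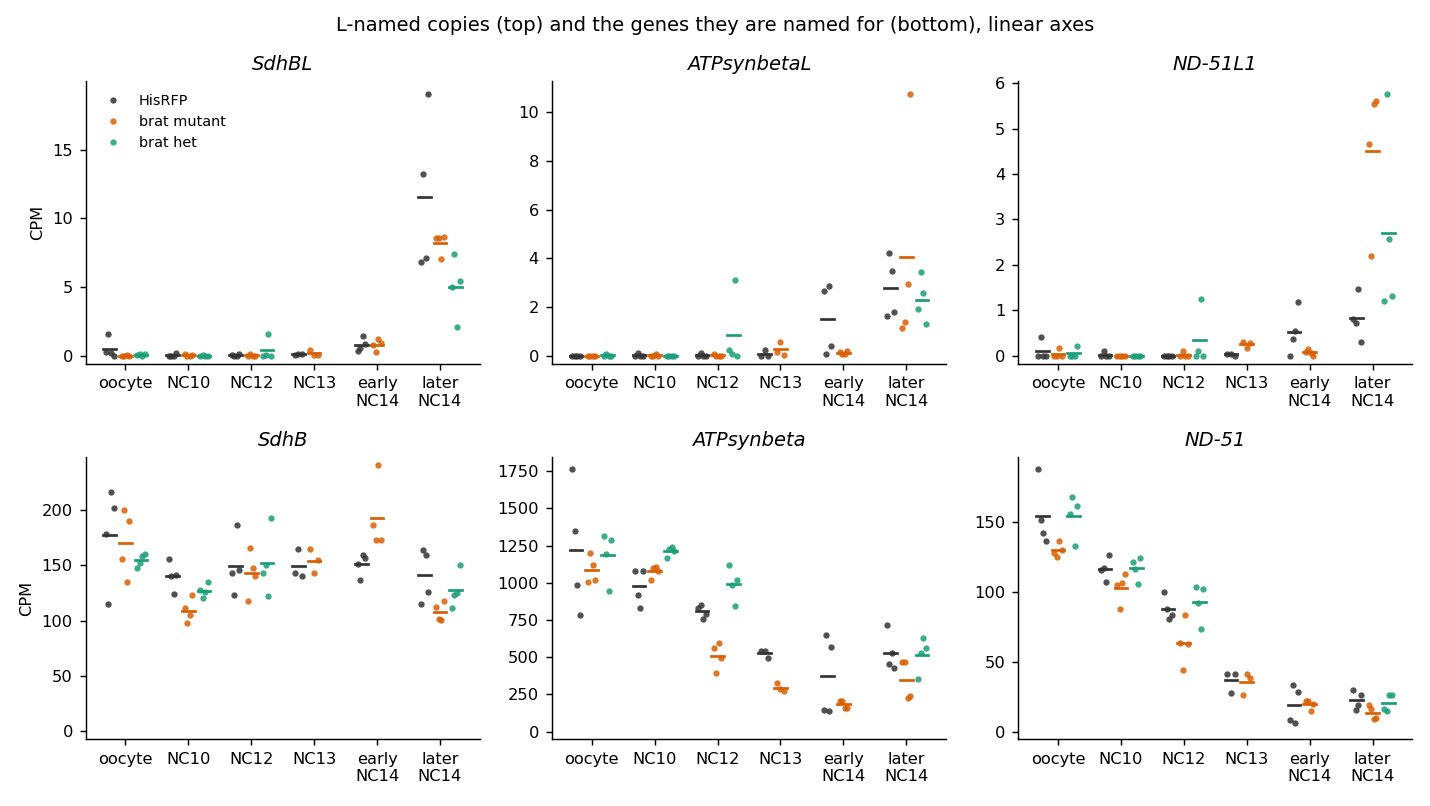
CPM (vertical axes, linear) of the copies *SdhBL*, *ATPsynbetaL* and *ND-51L1* (top) and of *SdhB*, *ATPsynbeta* and *ND-51* (bottom) in each library (points) at the 6 stages, coloured by genotype. *SdhBL* reaches 6.81, 13.2, 7.15 and 19.0 CPM in *HisRFP* at later NC14, where *SdhB* is between 115 and 164 CPM.

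Other genes of mitochondrial energy metabolism, in lists drawn up by function with earlier results of these data known, gave the following counts between NC12 and later NC14 in *HisRFP*, where 21.7% of all genes were called higher and 28.2% lower. A list of further OXPHOS subunits and electron carriers held 8 tested genes whose symbols do not carry a complex name, such as the ATP synthase alpha subunit *blw*. Of these 8, 1 was called higher (*cype*, 1.04) and 0 lower, with 7 higher and 1 lower at the adjusted p alone and a median of 0.71. Of 5 assembly factors, 0 were called higher and 4 lower (*Surf1* -1.88, *Scox* -1.64, *CIA30* -1.61 and *sicily* -1.43), with a median of -1.61. Of 7 genes of mitochondrial gene expression and its regulation, 0 were called higher and 4 lower, among them the coactivator *srl* (-3.42) and the mitochondrial RNA polymerase gene *PolrMT* (-3.24), with a median of -2.55. Of 11 TCA cycle genes, 0 were called higher and 2 lower (*Fum1*, -2.32, and *Idh3a*, -1.35), with a median of 0.02. Values after the gene names are log2 fold changes.

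In the genotype comparisons, *blw* had 319 ± 67.8 CPM (SD, n = 4) in *brat* mutants, 472 ± 67.5 CPM (SD, n = 4) in *brat* hets and 837 ± 85.7 CPM (SD, n = 4) in *HisRFP* at later NC14. It was called lower in *brat* mutants than in *HisRFP* (log2 fold change -1.44, SE 0.16, adjusted p = 0.000265), and in *brat* hets passed the adjusted p alone (log2 fold change -0.78, adjusted p = 0.00837). Its partners in the catalytic head and stalk had log2 fold changes of -0.65 (*ATPsynbeta*, adjusted p = 0.108) and -0.77 (*ATPsyngamma*) between *brat* mutants and *HisRFP* at that stage. The mitochondrial malate dehydrogenase gene *Mdh2* was called lower in *brat* mutants from NC12 on, with log2 fold changes of -1.17, -1.39, -1.04 and -2.03, and in *brat* hets at later NC14 (-1.36). Other genes of these lists went the other way. At early NC14, 3 of 5 assembly factors and 1 of 7 mitochondrial gene expression genes were called higher in *brat* mutants than in *HisRFP*, and 0 of either lower. Of 11 TCA cycle genes 0 were called higher and 1 lower, where 9.47% of all genes were called higher and 4.35% lower. *ND-13B* was the 1 of the 87 genes called against *HisRFP* at more than 1 stage.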

How the data were processed

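The table held whole-number counts of reads per gene for 62 libraries, deposited by the authors without normalization. Per the study's methods, reads of TruSeq libraries of polyadenylated RNA were aligned to dm6 with HISAT2 2.1.0, multi-mapping reads were discarded, SAMtools removed low-quality alignments and featureCounts 1.5.3 counted reads per gene without using strand; the authors' own tests were run with DESeq2 1.33.5 in R 4.1.0 and are not used here. FlyBase identifiers were given symbols from an Ensembl annotation of the same release 6 genome (99.4% of 17510 identifiers had one), from which exon lengths, exon sharing and coordinates were also taken. Reads that overlap exons of several genes are dropped by such counting, which lowers the counts of genes that share exons. The labels give the groups; 0 columns of the table belonged to no sample and 0 pairs of libraries had identical counts.

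Each comparison was fitted in edgeR 4.0.16 (R 4.3.3, glmQLFit and glmQLFTest, TMM factors) on the libraries of the groups compared, for genes with at least 50 reads in them, with Benjamini-Hochberg adjustment over all genes tested. Calls needed a log2 fold change above 1 or below -1 and an adjusted p below 0.05. Levels are CPM with TMM factors over all libraries, computed for the 10445 genes with at least 50 reads; the check of the replicate letters used log2(CPM + 1). Library totals run from 4000899 to 41029921 reads, so a CPM of 1 rests on few reads in the shallow libraries. A gene at 0 in some libraries was not detectable there at that depth. For *ND-MNLL*, *UQCR-14* and *COX5BL*, with 100% of exon bases shared with another gene, 0 reads say nothing about expression. Why the 13 mitochondrial genes had 0 reads in every library was not tested, and it is no sign that they were not expressed. Against a group with at most 3 reads per library, a fold is given as a lower bound from a floor of 3 reads per library.

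Genes named in the text are those called with a mean of at least 5 CPM in a group (at most the 5 largest rises and falls of a comparison), the 2 highest per length in each complex, and L-named copies with the genes they are named for. Genes past the adjusted p alone, *ND-75*, *blw*, *Mdh2* and other genes outside that rule were chosen after their values were seen, and so were *SdhA* in the *brat*-mutant comparisons and *COX4*. The OXPHOS genes and the other lists were chosen with earlier results of these data known. Of the 14 eggshell, 6 germ line, 10 zygotic, 10 other subunit or electron carrier, 8 assembly, 8 mitochondrial gene expression and 11 TCA cycle genes listed, 12, 5, 9, 9, 5, 7 and 11 had at least 50 reads. Replicate letters paired the libraries by correlation of deviations only from NC12 to NC13 in *HisRFP* (3 pairs, r from 0.231 to 0.524), where a replicate block changed no call. Alternatives were RLE factors, library totals, filterByExpr, no filter beyond 1 read, a replicate block, DESeq2 1.42.0, a fit of all 62 libraries and leaving out each library. The edgeR tests with TMM factors, the replicate block, the interaction and DESeq2 were tried on simulated counts first. The oocyte comparison was exempt from the recovery of known changes required of the others. The other scalings, the other filters and the fit of all 62 libraries were not simulated. No sequence was used here.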

Additional observations from a re-analysis of the deposited data

Results flagged for a closer look

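Of 47 sets of 4 libraries examined for a library far from the other 3, 2 stood apart by Dixon's criterion (a gap over 0.829 of the range), where chance gives about 1 in 20. *HisRFP* NC10 A had 0.952% of its reads on the 87 OXPHOS genes, and the other 3 embryos of the group had 0.725% to 0.76% (ratio 0.843). Without this library, 5 instead of 3 genes were called lower from oocyte to NC10. *HisRFP* later NC14 B had 30.3 CPM of *UQCR-C2*, and the other 3 embryos had 41.9 to 44.1 CPM (ratio 0.835).

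The change of *ND-75* from NC12 to later NC14 differed between *brat* mutants and *HisRFP*, by -0.71 on the log2 scale (interaction in edgeR, adjusted p = 0.0444), with the later NC14 values of *brat* mutants lower in 4 of 4 embryos than in any *HisRFP* embryo. Over all 8266 genes tested, 369 passed the adjusted p alone upwards and 325 downwards, so such a difference was not particular to this gene.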

How the results depend on the processing

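No named call changed direction under an alternative, but 10 of the 26 median log2 fold changes of the OXPHOS genes, none over 0.11 in size, had another sign under at least 1, among them that from early to later NC14 in *HisRFP* (0.11 to -0.04 in the fit of all libraries) and that of the interaction from NC12 to later NC14 (-0.04 to 0.03 with RLE factors). With library totals the calls from NC12 to later NC14 turned from mostly higher to mostly lower in all 3 genotypes. In all, 895 values of comparison summaries kept their call or range, while 42 became weaker, 28 became stronger and 17 moved. Of the values of single genes, 693 kept their call or range and 99 lost their call. With a replicate block, the OXPHOS genes called went to 0 between *brat* mutants and *HisRFP* at NC13, to 1 at early NC14, to 0 between *brat* mutants and *brat* hets at later NC14, to 1 lower from NC13 to early NC14 in *HisRFP* and to 3 lower from NC10 to NC12 in *brat* mutants; the letters paired the samples in none of these. With filterByExpr 1 gene was called between *brat* mutants and *HisRFP* at early NC14 and 1 between *brat* het and *HisRFP* oocytes, as with DESeq2 (1) in the latter.

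From NC12 to later NC14 the count called higher and the median moved with the scaling: in *HisRFP* 16 and 0.77 with RLE factors and with DESeq2, 3 and 0.32 with library totals, and a median of 0.42 in the fit of all libraries; in *brat* mutants 20 higher, 2 lower and 0.87 with RLE factors and with DESeq2, 4, 7 and 0.33 with library totals, 7, 7 and 0.47 in the fit of all libraries and a median of 0.60 with no filter; in *brat* hets 2, 6 and 0.34 with library totals, 5 lower and 0.39 in the fit of all libraries and 4 lower and 0.42 with no filter. Library totals also gave 1 call between *brat* mutants and *HisRFP* at later NC14, 2 lower from NC10 to NC12 in *brat* mutants and a median of 0.10 from oocyte to NC10 in *brat* hets. The fit of all libraries gave 1 call between *brat* mutants and *HisRFP* at later NC14; in *HisRFP* 5 lower from oocyte to NC10, 1 lower from NC10 to NC12, 3 higher from NC13 to early NC14 and a median of -0.04 from early to later NC14; 4 lower from NC10 to NC12 in *brat* mutants and 3 higher in *brat* hets. DESeq2 gave 3 lower from NC10 to NC12 in *brat* mutants, and no filter 1 higher from NC10 to NC12 in *brat* hets. The causes were not tested.

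Leaving out each library in turn gave 0 to 1 calls between *brat* mutants and *HisRFP* at NC13, 1 to 3 at early NC14 and 1 to 4 at later NC14, 0 to 2 between *brat* het and *HisRFP* oocytes and 0 to 1 between *brat* mutants and *brat* hets at later NC14. The genes called lower in *HisRFP* were 3 to 6 from oocyte to NC10, 1 to 3 from NC10 to NC12 and 0 to 4 from NC12 to NC13, in *brat* hets 1 to 2 from oocyte to NC10 and in *brat* mutants 0 to 3 from NC10 to NC12. From NC12 to later NC14 the genes called higher were 7 to 15 in *HisRFP*, 4 to 14 in *brat* mutants (median 0.60 to 0.79) and 3 to 9 in *brat* hets, and the median of the interaction was -0.16 to 0.09. Depth limits the L-named copies, most of which had too few reads to be tested.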

Other observations

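The stage at which a gene's mean CPM was highest was spread differently over the genotypes, which is given as a description. Among the 60 genes without an L name, the highest mean was at early NC14 for 24 and at later NC14 for 8 in *HisRFP*, and at early NC14 for 14 and at later NC14 for 23 in *brat* mutants. The same count over all genes is not given here, so it cannot be read as particular to OXPHOS genes. It also depends on the scaling: the *HisRFP* median from early to later NC14 was 0.11 in the main fit and -0.04 in the fit of all 62 libraries. In *brat* hets, for which NC13 and early NC14 were not sampled, it was at later NC14 for 38. The lowest mean was at NC12 for 27 genes in *HisRFP*, for 15 in *brat* mutants and for 8 in *brat* hets, where 27 had it in oocytes.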
